A study of Mus musculus with 8 samples.

Results

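The histone genes are the 57 of 10987 transcripts, each the canonical coding transcript of a gene, whose symbol in the deposited table begins with Hist1h to Hist4h, H2af, H3f3 or H1f. They comprise 45 replication-dependent genes (symbols beginning with Hist) and 12 genes of histone variants. The choice used the symbols and no measured value.

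Histones are the small basic proteins around which DNA is wound: H2A, H2B, H3 and H4 make up the core of the nucleosome, and H1 binds the DNA that links one nucleosome to the next. Replication-dependent histone genes have no introns, lie in clusters and are expressed in S phase, when new DNA is packaged. Their mRNAs end in a conserved stem-loop instead of a poly(A) tail, and the stem-loop binding protein (SLBP, gene Slbp) governs their processing, translation and rapid decay once DNA synthesis stops. Variant histones such as H3.3, H2A.Z and macroH2A are mostly made from spliced, polyadenylated mRNAs throughout the cell cycle and are placed in chromatin by chaperones of their own.

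The 8 libraries came from cultures of mouse oligodendrocyte progenitor cells (OPCs) and of oligodendrocytes (OLs) made from these OPCs. The OPCs were derived from epiblast stem cells of male embryos of the 129S/SvEv strain. OPCs were kept in a medium with N2 Max, B27, bFGF and PDGFA on plates coated with poly-L-ornithine and laminin, and OLs were made in a medium with N2 Max, B27, noggin, IGF-1, cyclic AMP, NT3 and T3 (thyroid hormone) and harvested 3 days later. Each cell type has 2 cultures, each pooled from several dishes, and each culture gave an RNA-seq library of total RNA depleted of rRNA and a ribosome footprint library of fragments protected from micrococcal nuclease. Both cell types were lysed in the presence of emetine, which holds ribosomes in place, and nuclei were spun out. The authors give abundance as FPKM (fragments scaled for length and library size), counted over the whole transcript for RNA-seq and over the coding sequence (CDS) for footprints. Selection on poly(A) was not used, so that mRNAs without a tail are measured. Below, paired values are given with culture 1 first. The study calls the 2 cultures of a group independent experiments, and describes each OL culture as made from its matching OPC culture and the RNA of each RNA-seq library as part of the lysate used for footprints. The tests below leave this matching out unless the replicate number is named as a block in the fit.

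The labelled cell types were checked on their markers. All 10 oligodendrocyte markers measured were higher in OL libraries in both RNA-seq and footprints, with median log2 changes of 6.51 and 8.65. Of 7 OPC markers, 5 were also higher in OL libraries and none was lower, including Pdgfra (the PDGF receptor of OPCs) at 53.5 and 31.3 FPKM in OPC and 105.5 and 100.6 FPKM in OL RNA-seq. Summed FPKM in RNA-seq of 8 astrocyte markers was 495 and 435.5 in OPCs and 1144 and 1022 in OLs, that of 8 neuron markers 135 and 124 against 190.4 and 209, and that of 3 markers of pluripotent cells at most 0.501. The part of these other cells in the results was not tested. In such bulk cultures, fewer dividing cells and less histone RNA per cell cannot be told apart, and the study describes some OPCs as remaining undifferentiated in the OL cultures. From the steps between low values, RNA-seq libraries held about 241 and 166 Mb of aligned bases for OPCs and 120 and 77.9 Mb for OLs, and footprint libraries 249 and 207 against 214 and 93.0 Mb (each possibly off by a factor of 2).

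The replication-dependent genes lie at 4 places of the GRCm38 genome. The HIST1 cluster holds 32 of them within 2219 kb of chromosome 13 (chr13:21715763-23934851), HIST2 holds 10 within 50.3 kb of chromosome 3 (chr3:96219865-96270132), HIST3 holds Hist3h2a and Hist3h2ba on chromosome 11 (chr11:58948920-58956830), and Hist4h4 stands alone on chromosome 6 (chr6:136801553-136804415). All 45 have 1 exon in the annotation (Gencode vM21), while 6 of the 12 variant genes are spliced.

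The sequence that sets the classes apart is the stem-loop, which the symbols do not encode. The motif GGCNCTTTTNAGNGCC was searched on the coding strand of the genome in the 150 bases after each stop codon. It was present in 40 of the 45 replication-dependent genes and in 1 of the 12 variant genes, H2afx (histone H2A.X), against 42 of 10984 listed transcripts (0.382%). Beyond the histone genes named here it was found in 1 transcript. The motif began 22 to 59 bases after the stop codon (median 31). In 17 genes the motif with 5 bases on each side did not lie wholly inside the annotated transcript. Shown in capitals, with 5 bases on each side, are the stem-loops of at least 1 gene of each class and of H2afx, since the stem differs by class:
Hist1h1b, histone H1, chr13:21779832-21779857, minus strand: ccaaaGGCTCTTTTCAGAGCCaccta
Hist1h2aa, histone H2A, chr13:23934886-23934911, plus strand: aaaaaGGCTCTTTTCAGAGCCacctt
Hist1h2ba, histone H2B, chr13:23933725-23933750, minus strand: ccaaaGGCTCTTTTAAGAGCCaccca
Hist1h3h, histone H3, chr13:21718090-21718115, plus strand: tcaaaGGCTCTTTTCAGAGCCaccca
Hist4h4, histone H4, chr6:136803993-136804018, minus strand: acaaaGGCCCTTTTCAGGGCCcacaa
Hist2h4, histone H4, chr3:96262934-96262959, minus strand: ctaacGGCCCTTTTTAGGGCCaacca
H2afx, variant H2A.X, chr9:44335235-44335260, plus strand: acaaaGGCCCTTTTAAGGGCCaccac

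The stem began with GGCCC in 7 of 7 matching H4 genes and in H2afx, and with GGCTC in each of the other 33 matching genes, and the far side of the stem ended in GGGCC or GAGCC to pair with it. No match was found in Hist1h2an, Hist1h4a, Hist1h4b, Hist1h4j and Hist2h2be, which says only that these letters are not in this window. H2afx is known to be expressed in a stem-loop form and in a longer polyadenylated form.

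Because the genes of a class are nearly identical, single values are less certain than sums. All 10 H4 genes encode 1 identical protein, and a median 86.9% of the 30-base words of a replication-dependent CDS recurred in a transcript of another gene, with more than 50% recurring in 37 of the 45 genes. Among all listed transcripts the median was 0 and 9.78% had more than 50%. The authors' tools could therefore place the same read on several members, and neighbours in the text are not independent measurements. In each pair with an identical CDS, the plus-strand copy had the higher FPKM in every footprint library. These were Hist1h2ao over Hist1h2ap, Hist2h2aa1 over Hist2h2aa2, Hist2h3c1 over Hist2h3c2 and Hist1h4m over Hist1h4n. The part of read placement in level differences between genes of a class was not tested. Only 7 replication-dependent genes shared at most 35% of their words: Hist4h4 (1.06%), Hist1h1b (4.82%), Hist1h2aa (12.2%), Hist2h4 (13.8%), Hist2h2be (19.9%), Hist1h1c (29.2%) and Hist2h2ab (33.8%). Among variants, H1fx, H2afv and H2afy shared none, and H2afz (100%) and H3f3a (99.5%) shared nearly all, the latter with 56 other genes.

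Replication-dependent histone RNA was lower in OLs than in OPCs, and so were the ribosomes on it. Of the 45 genes, 43 fell in RNA-seq (limma on log2(FPKM + 0.1), adjusted p under 0.05 with Benjamini-Hochberg adjustment over all transcripts tested), where 20.2% of 8346 transcripts fell, and 43 fell in footprints, where 10.8% of 8342 fell. None rose, against 13% of all transcripts in RNA-seq and 12.8% in footprints. The median log2 change was -1.64 in RNA-seq (3.12-fold lower) and -2.15 in footprints (4.44-fold lower), beside -0.23 and -0.16 over all transcripts tested, which leaves -1.41 and -1.99 relative to that shift. Scaling the libraries by median ratios moved the RNA-seq median of all transcripts to -0.05 and left the median of the 45 genes relative to it at -1.41. Both OL libraries lay below both OPC libraries for 44 genes in RNA-seq and 45 in footprints, against 44.2% and 37.9% of all transcripts tested. The exceptions to the calls were both HIST3 genes. With the replicate number as a block, all 45 genes fell in RNA-seq and in footprints, Hist3h2a and Hist3h2ba included. Over all transcripts, 2073 of 8346 fell with this block in RNA-seq and 803 of 8342 in footprints. Of the variant genes, 9 of the 12 reached a mean of 1 FPKM and were tested, 4 of these fell in RNA-seq (H2afj, H2afx, H2afy and H2afz) and 3 in footprints (H2afx, H2afy and H2afz), with medians of -0.49 and -0.64. With the replicate block 4 fell in RNA-seq and 6 in footprints, the latter with H1fx, H2afj and H2afv added.

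Summed over the 45 genes, RNA-seq amounted to 43998 and 31105 FPKM for OPCs and 12544 and 10920.4 for OLs, and footprints gave 188971 and 123168 against 42900.2 and 27910.0 FPKM. These genes took 2.29% and 1.61% of aligned RNA-seq bases in OPCs and 0.673% and 0.587% in OLs. In footprints they took 7.21% and 4.71% of aligned bases in OPCs and 1.64% and 1.07% in OLs. The OL mean was 0.312 of the OPC mean in RNA-seq and 0.227 in footprints, and neither pair of groups overlapped. By class, the OPC mean was 3.06-fold (H4) to 3.34-fold (H1) the OL mean in RNA-seq and 3.51-fold (H1) to 5.06-fold (H3) in footprints.

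**Figure D1:**
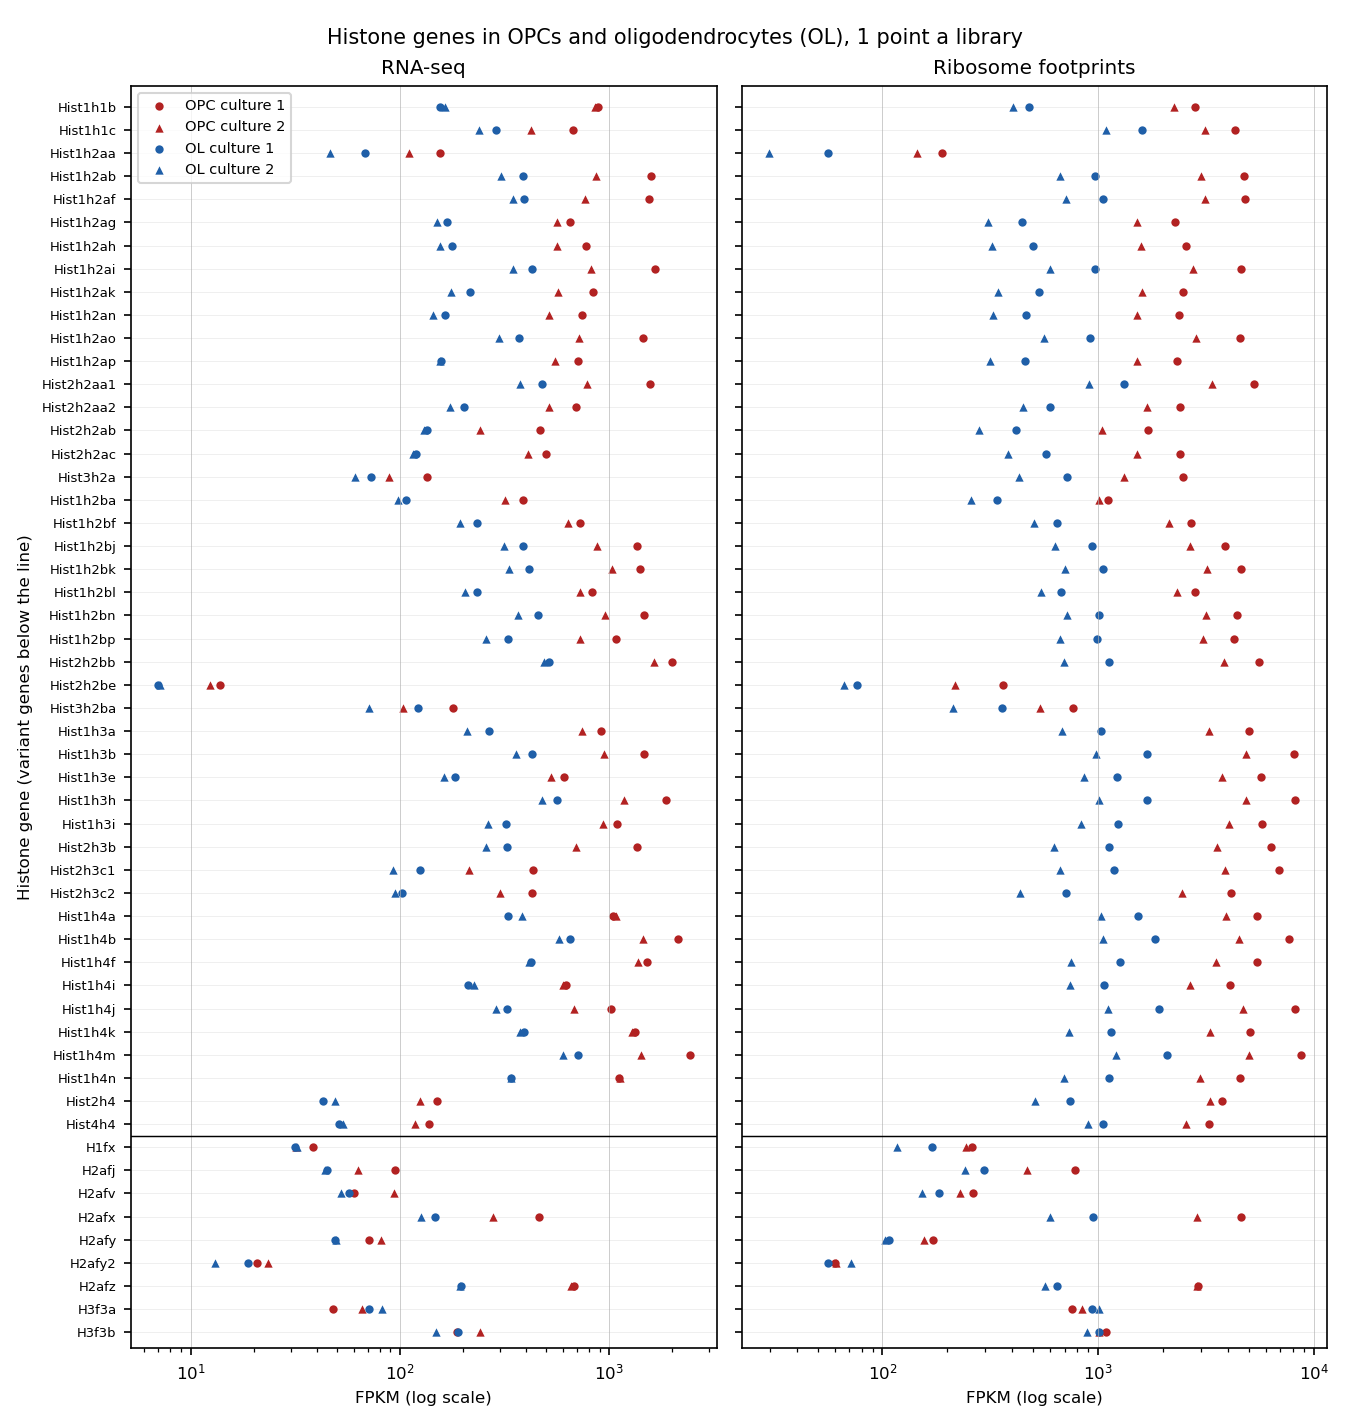
FPKM (log scale) of the 54 histone genes that were tested, in RNA-seq (left) and footprints (right), 1 point a library, with circles for culture 1 and triangles for culture 2. OL points (blue) lie left of OPC points (red) for all 45 replication-dependent genes in footprints and for 44 in RNA-seq. Among the variants, below the line, OL points of H3f3a lie right of its OPC points in both panels. The groups of H3f3b and H1fx overlap in RNA-seq and those of H2afy2 in footprints.

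The calls rest on few libraries. In footprints 9 of the 45 genes fell when limma was run without its mean-variance trend, where 365 of all 8342 transcripts fell. In RNA-seq 35 fell, where 1193 of 8346 transcripts did. With 1 library left out, fewer of the 45 genes were called in most fits, as were fewer of all transcripts. A lone library has no spread of its own, so only sizes are given for these fits. The median log2 change of the 45 genes then ranged from -1.90 to -1.44 in RNA-seq and from -2.47 to -1.88 in footprints. Relative to the median of all transcripts it ranged from -1.67 to -1.22 and from -2.32 to -1.73. All 45 changes stayed negative in each of these fits.

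Linker histone H1 is represented by Hist1h1b (H1.5) and Hist1h1c (H1.2). Hist1h1b was at 884 and 854 FPKM in OPC and 156 and 164 FPKM in OL RNA-seq, and at 2801 and 2246 against 480.4 and 404 FPKM in footprints. Its log2 change was -2.44 ± 0.14 (SE, limma adjusted p = 0.00053) in RNA-seq and -2.51 ± 0.18 (SE, limma adjusted p = 0.0062) in footprints, the lowest RNA-seq change of all histone genes. For Hist1h1c, the RNA-seq level in FPKM was 671 and 422 for OPCs and 287 and 239.6 for OLs, and footprints gave 4328 and 3136 against 1594 and 1086. Here the cultures of both groups lay apart and did not overlap, and the log2 changes were -1.02 ± 0.25 (SE, limma adjusted p = 0.029) and -1.49 ± 0.28 (SE, limma adjusted p = 0.032). Both are among the 7 genes with at most 35% shared words, and the difference between their changes was not tested. In OLs, Hist1h1c exceeded Hist1h1b per length in both cultures and both kinds of library.

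Of 15 replication-dependent H2A genes, 14 fell in RNA-seq and 14 in footprints, with median changes of -1.67 and -2.22. Several are arranged head to head with an H2B gene, and 7 such pairs with 238 to 305 bases between the annotated starts were found. In the 5 pairs within the main body of HIST1, RNA-seq changes ranged from -2.001 to -1.54. The sequences between the starts of 2 pairs are shown, since both genes of a pair start at their ends, and capitals mark CCAAT and TATAA on either strand (ATTGG and TTATA when read on the other strand), the classical CCAAT box and TATA box cores:
Hist1h2ag to Hist1h2bj, chr13:22042945-22043213, plus strand: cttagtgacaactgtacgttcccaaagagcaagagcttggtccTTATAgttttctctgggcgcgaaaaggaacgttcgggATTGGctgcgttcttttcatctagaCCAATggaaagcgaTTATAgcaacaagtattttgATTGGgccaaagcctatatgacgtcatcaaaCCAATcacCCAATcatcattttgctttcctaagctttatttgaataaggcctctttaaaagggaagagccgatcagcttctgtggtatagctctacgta
Hist2h2ac to Hist2h2be, chr3:96220881-96221118, plus strand: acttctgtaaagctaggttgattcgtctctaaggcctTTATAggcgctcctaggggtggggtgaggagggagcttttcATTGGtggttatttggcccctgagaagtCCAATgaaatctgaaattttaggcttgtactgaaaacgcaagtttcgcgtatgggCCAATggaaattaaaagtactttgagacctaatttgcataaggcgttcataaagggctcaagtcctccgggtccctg

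The first region holds 5 CCAAT matches and 2 TATAA matches, the second 3 and 1. In the 250 bases before to 50 after the RefSeq start (GRCm38.p6), CCAAT on either strand was found for 15 of 15 H2A, 9 of 9 H2B, 7 of 7 H3 and 2 of 2 H1 genes but 1 of 9 H4 genes, against 41.1% of 27025 promoters in the table. TATAA on the coding strand was found for 9 of 9 H4 genes and for 30 of all 42 replication-dependent genes matched, against 20% of promoters. Among 11 matched variant genes, 9 held CCAAT and 2 held TATAA. A match describes the letters only.

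The pair of Hist1h2ag and Hist1h2bj is the first shown. Hist1h2ag had 647 and 561 FPKM in OPC RNA-seq and 168 and 151 FPKM in OL RNA-seq, with footprints at 2282 and 1509 FPKM against 446 and 310.0 FPKM. Hist1h2bj was at 1354 and 875 FPKM in OPC and 388 and 313 FPKM in OL RNA-seq, and at 3877 and 2671 against 940.0 and 634 FPKM in footprints. Their log2 changes were -1.92 and -1.64 in RNA-seq and -2.32 and -2.06 in footprints.

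In the second pair the members' RNA-seq changes lay further apart than their footprint changes. For Hist2h2ac, the RNA-seq level in FPKM was 499 and 410.3 for OPCs and 119 and 115 for OLs, and footprints gave 2395 and 1508 against 576 and 381. Hist2h2be had 13.9 and 12.3 FPKM in OPC RNA-seq and 6.96 and 7.16 FPKM in OL RNA-seq, with footprints at 361 and 217 FPKM against 76.1 and 66.5 FPKM. The log2 changes of Hist2h2ac were -1.95 ± 0.16 (SE, limma adjusted p = 0.0012) in RNA-seq and -2.02 ± 0.33 (SE, limma adjusted p = 0.023) in footprints, and those of Hist2h2be were -0.88 ± 0.23 (SE, limma adjusted p = 0.036) and -1.98 ± 0.28 (SE, limma adjusted p = 0.018). Hist2h2be, an H2B gene with no stem-loop match, is annotated with a transcript of 2620 bases for a CDS of 381 bases, so its RNA-seq FPKM averages over a long stretch behind the CDS.

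The testis H2A and H2B genes, Hist1h2aa (TH2A) and Hist1h2ba (TH2B), form a further head-to-head pair at chr13:23933773-23934851 and are best known from male germ cells. Hist1h2aa was at 156 and 109.8 FPKM in OPC and 67.7 and 46.2 FPKM in OL RNA-seq, and at 189 and 144 against 56.1 and 29.6 FPKM in footprints. For Hist1h2ba, the RNA-seq level in FPKM was 385 and 316 for OPCs and 107 and 97.9 for OLs, and footprints gave 1114 and 1010.4 against 339 and 256. Both were detected in all 8 libraries, and in neither did the groups overlap. In RNA-seq their log2 changes were -1.23 ± 0.26 (SE, limma adjusted p = 0.018) for Hist1h2aa and -1.77 ± 0.17 (SE, limma adjusted p = 0.0017) for Hist1h2ba. Hist1h2aa had the lowest mean footprint FPKM in OLs of the 54 tested histone genes, and rests there on an estimated 36 reads in the shallowest library.

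The canonical H2A genes of HIST1 share most of their CDS words with other genes, and 4 of them were higher than the rest in RNA-seq. These 4 lie on the plus strand and the rest on the minus strand, and the part of read placement was not tested. Hist1h2ab had 1580.5 and 865 FPKM in OPC RNA-seq and 388 and 303 FPKM in OL RNA-seq, with footprints at 4732 and 3012 FPKM against 963 and 669 FPKM. Hist1h2af was at 1541 and 761 FPKM in OPC and 392 and 346 FPKM in OL RNA-seq, and at 4777 and 3137 against 1048 and 709 FPKM in footprints. For both, OPC culture 1 lay well above OPC culture 2, and the groups did not overlap. For Hist1h2ai, the RNA-seq level in FPKM was 1647 and 821 for OPCs and 429 and 346 for OLs, and footprints gave 4600.1 and 2738 against 972 and 599. Hist1h2ao had 1445 and 715 FPKM in OPC RNA-seq and 369 and 296 FPKM in OL RNA-seq, with footprints at 4558 and 2841 FPKM against 917 and 558 FPKM. The others ran lower, near the level of Hist1h2ag. Hist1h2ak was at 836 and 571 FPKM in OPC and 215 and 175 FPKM in OL RNA-seq, and at 2478 and 1589.6 against 529 and 343 FPKM in footprints. For Hist1h2ah, the RNA-seq level in FPKM was 772 and 559 for OPCs and 178 and 156 for OLs, and footprints gave 2554 and 1578 against 501 and 320.5. Each was lower in both OL libraries than in both OPC libraries. Hist1h2an had 738 and 512 FPKM in OPC RNA-seq and 163 and 144 FPKM in OL RNA-seq, with footprints at 2374 and 1511 FPKM against 462 and 325 FPKM. Hist1h2ap was at 712 and 553 FPKM in OPC and 157 and 155 FPKM in OL RNA-seq, and at 2317 and 1511 against 458 and 316 FPKM in footprints. Hist1h2ao and Hist1h2ap have an identical CDS, so that footprint reads within it cannot separate them.

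In HIST2 the identical H2A genes Hist2h2aa1 and Hist2h2aa2 showed the same pattern. For Hist2h2aa1, the RNA-seq level in FPKM was 1569.9 and 778 for OPCs and 475 and 375 for OLs, and footprints gave 5275 and 3377 against 1314 and 909. Hist2h2aa2 had 695 and 512 FPKM in OPC RNA-seq and 202 and 174 FPKM in OL RNA-seq, with footprints at 2390.0 and 1679.5 FPKM against 599 and 448 FPKM. Hist2h2ab was at 465 and 240.2 FPKM in OPC and 134 and 130.4 FPKM in OL RNA-seq, and at 1706 and 1043 against 417 and 281 FPKM in footprints. The last, with 33.8% of its words shared, fell by 1.34 ± 0.31 on the log2 scale (SE, limma adjusted p = 0.024) in RNA-seq and 1.96 ± 0.33 on the log2 scale (SE, limma adjusted p = 0.025) in footprints. Hist3h2a, a replication-dependent gene outside the large clusters, missed the threshold in the fits used throughout. With libraries scaled by median ratios, all 45 genes fell in footprints, Hist3h2a included. For Hist3h2a, the RNA-seq level in FPKM was 135 and 88.2 for OPCs and 72.6 and 61.3 for OLs, and footprints gave 2471 and 1316 against 718 and 428. The groups did not overlap, but its log2 changes of -0.71 ± 0.24 (SE, limma adjusted p = 0.069) and -1.70 ± 0.42 (SE, limma adjusted p = 0.059) missed the threshold. With the replicate block both passed (limma adjusted p = 0.013 and 0.0047).

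Of 10 H2B genes, 9 fell in both kinds of library (medians -1.66 and -2.08). Hist2h2bb was the most abundant in RNA-seq. Hist2h2bb had 1993 and 1639.6 FPKM in OPC RNA-seq and 514 and 488 FPKM in OL RNA-seq, with footprints at 5552 and 3845 FPKM against 1123 and 698 FPKM. Its log2 change was -1.85 ± 0.18 (SE, limma adjusted p = 0.0019) in RNA-seq and -2.38 ± 0.33 (SE, limma adjusted p = 0.016) in footprints. Hist1h2bf was at 725 and 636 FPKM in OPC and 233 and 194 FPKM in OL RNA-seq, and at 2697 and 2128 against 642 and 502 FPKM in footprints. For Hist1h2bl, the RNA-seq level in FPKM was 822 and 727 for OPCs and 233 and 204 for OLs, and footprints gave 2824 and 2322 against 671 and 541. Hist1h2bf, Hist1h2bj, Hist1h2bl and Hist1h2bn encode one identical protein. Hist1h2bk had 1397 and 1028 FPKM in OPC RNA-seq and 415 and 332 FPKM in OL RNA-seq, with footprints at 4575 and 3183 FPKM against 1051 and 704 FPKM. Hist1h2bn was at 1471 and 958 FPKM in OPC and 454 and 366 FPKM in OL RNA-seq, and at 4419 and 3167 against 1011 and 718 FPKM in footprints. For Hist1h2bp, the RNA-seq level in FPKM was 1078 and 724 for OPCs and 328 and 259 for OLs, and footprints gave 4274 and 3050.2 against 989.7 and 667. For these the OPC libraries lay further apart, and the groups still did not overlap. The exception was Hist3h2ba. Hist3h2ba had 178 and 104 FPKM in OPC RNA-seq and 122 and 71.1 FPKM in OL RNA-seq, with footprints at 767 and 540.1 FPKM against 356 and 213 FPKM. In RNA-seq OL culture 1 lay above OPC culture 2, the only overlap among the 45 genes, and the log2 changes were -0.55 ± 0.35 (SE, limma adjusted p = 0.27) and -1.22 ± 0.33 (SE, limma adjusted p = 0.069). With the replicate block both passed (limma adjusted p = 0.021 and 0.0095), and OLs were lower than OPCs within each culture number.

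All 8 replication-dependent H3 genes fell in both kinds of library, with medians of -1.73 in RNA-seq and -2.28 in footprints. Those named h3a, h3h and h3i encode one identical protein and the other 5 another, and these are the canonical forms H3.1 and H3.2. Hist1h3h was at 1859 and 1171 FPKM in OPC and 559 and 475 FPKM in OL RNA-seq, and at 8203 and 4865 against 1680.5 and 1008 FPKM in footprints. For Hist1h3b, the RNA-seq level in FPKM was 1461 and 938 for OPCs and 427 and 356 for OLs, and footprints gave 8127 and 4864 against 1692 and 976. Hist1h3i had 1086 and 932 FPKM in OPC RNA-seq and 320.0 and 263 FPKM in OL RNA-seq, with footprints at 5755 and 4037 FPKM against 1233 and 834 FPKM. Footprint levels of H3 genes were among the highest of the histone genes. Hist1h3a was at 911 and 743 FPKM in OPC and 267 and 210.0 FPKM in OL RNA-seq, and at 5010.3 and 3262 against 1028 and 679.7 FPKM in footprints. For Hist1h3e, the RNA-seq level in FPKM was 609 and 524 for OPCs and 183 and 163 for OLs, and footprints gave 5661 and 3769 against 1225 and 858. Each of these was lower in both OL libraries than in either OPC library. Hist2h3b had 1352 and 695 FPKM in OPC RNA-seq and 323 and 258 FPKM in OL RNA-seq, with footprints at 6355 and 3568 FPKM against 1125 and 623 FPKM. Hist2h3c1 was at 431 and 213 FPKM in OPC and 125 and 93.0 FPKM in OL RNA-seq, and at 6869.8 and 3889.9 against 1186 and 667 FPKM in footprints. For Hist2h3c2, the RNA-seq level in FPKM was 427 and 302 for OPCs and 103 and 94.8 for OLs, and footprints gave 4115 and 2446 against 709 and 433. The lowest footprint change of all histone genes was that of Hist2h3c1, -2.54 ± 0.43 (SE, limma adjusted p = 0.025), whose RNA-seq change was -1.49 ± 0.35 (SE, limma adjusted p = 0.025). Hist2h3c1 and Hist2h3c2 have an identical CDS, so footprints cannot separate them.

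All 10 H4 genes fell in both kinds of library (medians -1.55 and -2.07), the class with CCAAT in 1 of 9 matched promoters. Of these, Hist4h4 is the gene that can be read most cleanly, with 1.06% of its words shared. Its upstream sequence is shown because Hist4h4 lies apart from all clusters, with TATAA matches in capitals (TTATA when read on the other strand):
Hist4h4, chr6:136804432-136804681, minus strand: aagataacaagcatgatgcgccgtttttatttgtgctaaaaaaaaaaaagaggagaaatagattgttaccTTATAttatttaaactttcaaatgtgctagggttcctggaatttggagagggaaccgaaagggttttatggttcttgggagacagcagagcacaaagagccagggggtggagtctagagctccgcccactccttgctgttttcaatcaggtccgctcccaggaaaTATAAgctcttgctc

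Hist4h4 had 137 and 118 FPKM in OPC RNA-seq and 51.0 and 53.6 FPKM in OL RNA-seq, with footprints at 3281 and 2568 FPKM against 1048 and 894 FPKM. Its log2 changes were -1.28 ± 0.16 (SE, limma adjusted p = 0.0035) and -1.58 ± 0.19 (SE, limma adjusted p = 0.013), both the smallest in size among H4 genes. Hist2h4 was at 149.7 and 125 FPKM in OPC and 42.9 and 49.1 FPKM in OL RNA-seq, and at 3753 and 3299.8 against 737 and 508 FPKM in footprints. Here the changes were -1.57 ± 0.17 (SE, limma adjusted p = 0.0027) and -2.52 ± 0.23 (SE, limma adjusted p = 0.0080), the latter the largest fall of an H4 gene. Hist4h4 and Hist2h4 encode the same protein from coding sequences that share little, and each was lower in both OL libraries than in both OPC libraries. The difference between the 2 genes was not tested.

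The 8 H4 genes of HIST1 were more abundant in RNA-seq. For Hist1h4m, the RNA-seq level in FPKM was 2427 and 1411 for OPCs and 709 and 599.8 for OLs, and footprints gave 8704 and 5006 against 2087 and 1204. Hist1h4b had 2127 and 1451 FPKM in OPC RNA-seq and 646 and 576 FPKM in OL RNA-seq, with footprints at 7663 and 4487 FPKM against 1836 and 1052 FPKM. Hist1h4j was at 1017 and 677 FPKM in OPC and 323 and 287 FPKM in OL RNA-seq, and at 8144 and 4713 against 1912 and 1116 FPKM in footprints. For these, OPC culture 1 was the highest library in both kinds of library. For Hist1h4f, the RNA-seq level in FPKM was 1504 and 1376 for OPCs and 421 and 413 for OLs, and footprints gave 5458 and 3528 against 1269 and 752. Hist1h4k had 1322 and 1282 FPKM in OPC RNA-seq and 392 and 373 FPKM in OL RNA-seq, with footprints at 5075 and 3283 FPKM against 1153 and 731 FPKM. Hist1h4n was at 1110.4 and 1121 FPKM in OPC and 339.7 and 339 FPKM in OL RNA-seq, and at 4537 and 2978 against 1126 and 692 FPKM in footprints. In RNA-seq the cultures of a group differed little for this set. For Hist1h4a, the RNA-seq level in FPKM was 1038 and 1079 for OPCs and 329.6 and 382 for OLs, and footprints gave 5468 and 3917 against 1536 and 1029.6. Hist1h4i had 620.1 and 598 FPKM in OPC RNA-seq and 210.4 and 226 FPKM in OL RNA-seq, with footprints at 4103 and 2677 FPKM against 1068 and 738 FPKM. Hist1h4a and Hist1h4n were the 2 genes of 45 that were not higher in OPC culture 1 in RNA-seq, and the groups of neither overlapped.

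**Figure D2:**
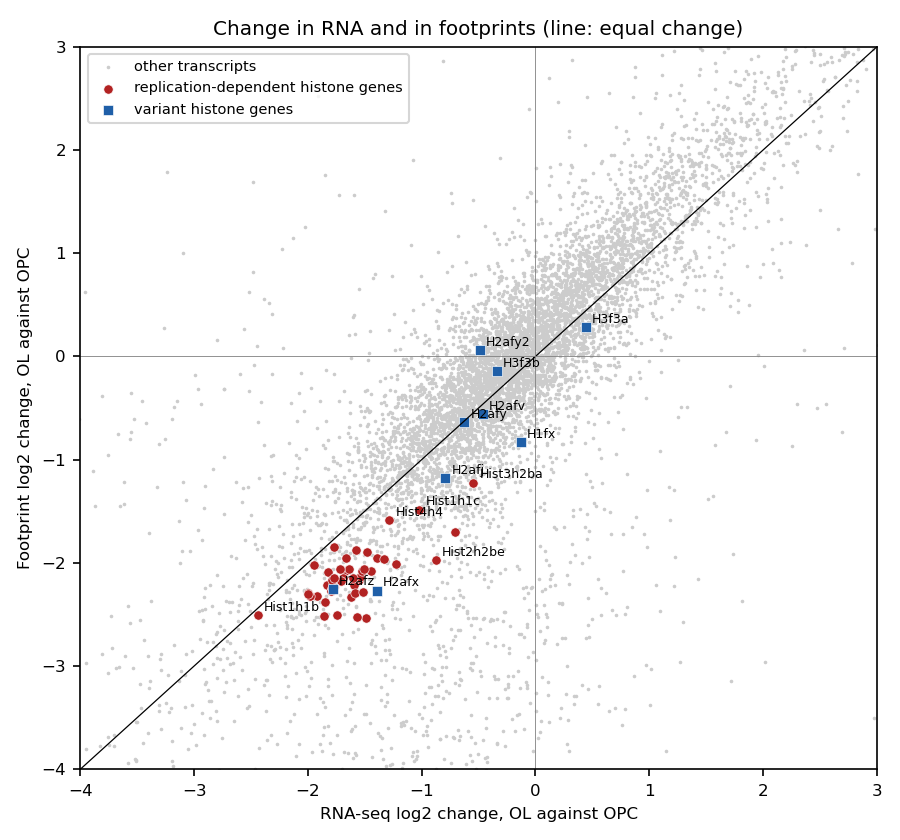
Log2 change, OL against OPC, in RNA-seq (x axis) and footprints (y axis) for all transcripts tested in both (grey), replication-dependent histone genes (red circles) and variant genes (blue squares); the line marks equal change, and transcripts beyond the axis limits of -4 and 3 are not drawn. All 45 replication-dependent genes lie below the line, with H2afz and H2afx among them, while H3f3a and H3f3b lie near the origin.

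H2afz encodes H2A.Z.1, the H2A variant of active promoters, on chromosome 3 (chr3:137864487-137866922), and has 5 exons and no stem-loop match. H2afz was at 679 and 659 FPKM in OPC and 196 and 192 FPKM in OL RNA-seq, and at 2908 and 2876 against 644 and 567 FPKM in footprints. The log2 changes were -1.78 ± 0.14 (SE, limma adjusted p = 0.0012) and -2.26 ± 0.13 (SE, limma adjusted p = 0.0042), larger than the median of the replication-dependent genes in each kind of library. H2afv, for the closely related H2A.Z.2 (chr11:6427229-6444443), moved less. For H2afv, the RNA-seq level in FPKM was 60.4 and 93.6 for OPCs and 56.8 and 52.2 for OLs, and footprints gave 263 and 228 against 182 and 153. Its groups did not overlap in either kind of library, but its changes of -0.46 ± 0.24 (SE, limma adjusted p = 0.18) and -0.55 ± 0.15 (SE, limma adjusted p = 0.071) did not pass, the latter doing so with the replicate block (limma adjusted p = 0.032). H2afv made up 8.16% and 12.4% of summed H2A.Z FPKM (H2afz and H2afv) in OPC RNA-seq and 22.4% and 21.3% in OL RNA-seq, and 8.29% and 7.36% against 22.04% and 21.2% in footprints.

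H2afx encodes H2A.X, whose phosphorylated form marks DNA breaks, and is the one variant gene with the stem-loop shown above (chr9:44334694-44336077). H2afx had 462 and 279 FPKM in OPC RNA-seq and 147 and 127 FPKM in OL RNA-seq, with footprints at 4579.8 and 2863 FPKM against 947 and 595 FPKM. It fell by 1.40 ± 0.26 on the log2 scale (SE, limma adjusted p = 0.012) in RNA-seq and 2.27 ± 0.35 on the log2 scale (SE, limma adjusted p = 0.021) in footprints, with no overlap. H2afj (H2A.J) lies 3828 bases from Hist4h4 on chromosome 6, transcribed away from it, and lacks the motif. H2afj was at 94.1 and 62.9 FPKM in OPC and 44.8 and 44.0 FPKM in OL RNA-seq, and at 779.6 and 470.0 against 294 and 242 FPKM in footprints. It fell in RNA-seq, with a log2 change of -0.79 ± 0.22 (SE, limma adjusted p = 0.043), while its footprint change of -1.18 ± 0.29 (SE, limma adjusted p = 0.057) missed the threshold and passed with the replicate block (limma adjusted p = 0.019).

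MacroH2A carries a large extra domain and is associated with repressed chromatin, including the inactive X chromosome. H2afy (macroH2A1) fell modestly, by 0.63 ± 0.16 on the log2 scale (SE, limma adjusted p = 0.029) in RNA-seq and 0.64 ± 0.11 on the log2 scale (SE, limma adjusted p = 0.028) in footprints. For H2afy, the RNA-seq level in FPKM was 71.1 and 81.4 for OPCs and 49.0 and 49.5 for OLs, and footprints gave 171 and 156 against 107 and 103. H2afy2 (macroH2A2) did not pass in either. H2afy2 had 20.7 and 23.5 FPKM in OPC RNA-seq and 18.8 and 13.1 FPKM in OL RNA-seq, with footprints at 60.4 and 60.8 FPKM against 56.0 and 71.1 FPKM. Its log2 changes were -0.49 ± 0.25 (SE, limma adjusted p = 0.18) in RNA-seq, where the groups did not overlap, and 0.06 ± 0.17 (SE, limma adjusted p = 0.82) in footprints, where they did.

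H3.3 is the H3 variant deposited independently of DNA replication, and its protein comes from both H3f3a (chr1:180800832-180813632) and H3f3b (chr11:116021961-116024504). H3f3a was at 48.1 and 65.5 FPKM in OPC and 71.2 and 81.6 FPKM in OL RNA-seq, and at 756 and 841 against 933 and 1008 FPKM in footprints. For H3f3b, the RNA-seq level in FPKM was 187 and 242 for OPCs and 189 and 149 for OLs, and footprints gave 1088 and 1010.3 against 1009 and 890.4. For H3f3a both OL libraries lay above both OPC libraries, with log2 changes of 0.44 ± 0.20 (SE, limma adjusted p = 0.15) and 0.28 ± 0.12 (SE, limma adjusted p = 0.18) that did not pass. For H3f3b the changes of -0.34 ± 0.20 (SE, limma adjusted p = 0.24) and -0.15 ± 0.13 (SE, limma adjusted p = 0.44) did not pass either. Most CDS words of H3f3a (99.5%) and H3f3b (70.7%) recur in other genes.

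H1fx encodes H1.10, a linker histone variant with no shared words (chr6:87980421-87981637). H1fx had 38.4 and 31.9 FPKM in OPC RNA-seq and 31.6 and 32.3 FPKM in OL RNA-seq, with footprints at 259 and 243 FPKM against 170.1 and 117 FPKM. Its RNA-seq change of -0.13 ± 0.18 (SE, limma adjusted p = 0.60) turned to 0.05 when libraries were scaled by median ratios, and its footprint change of -0.83 ± 0.22 (SE, limma adjusted p = 0.065) missed the threshold. Both OL footprint libraries lay below both OPC libraries, and the footprint change passed with the replicate block (limma adjusted p = 0.042). H2afb1, H2afb2 and H2afb3, X-linked testis H2A variants, were at 0 to 1.16 FPKM in RNA-seq and at 0 to 0.215 FPKM in footprints, and were not tested.

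The makeup of histone mRNA, as shares of summed FPKM, differed between the cell types. A share also moves with the rest of its class: summed H3.3 FPKM itself was 235 and 307 in OPC and 261 and 230 in OL RNA-seq. H3.3 genes made up 2.80% and 5.28% of summed H3 FPKM in OPC RNA-seq and 10.1% and 10.7% in OL RNA-seq. In footprints the share was 3.55% and 5.69% in OPCs and 16.4% and 23.8% in OLs, a mean of 4.62% ± 1.51 against 20.1% ± 5.21 (SD, n = 2 cultures). MacroH2A made up 0.876% ± 0.364 of H2A in OPC and 1.74% ± 0.0966 in OL RNA-seq, and 0.523% ± 0.132 against 1.71% ± 0.53 in footprints. H1fx made up 2.43% ± 0.0216 of summed H1 in OPC and 7.04% ± 0.526 in OL RNA-seq, and 3.91% ± 0.575 against 7.43% ± 0.214 in footprints. In none of these shares did the groups overlap. The H2afx share of H2A was higher in OLs in RNA-seq (3.11% and 3.02% in OPCs against 3.63% and 3.66%). In footprints it was lower in OLs (8.50% and 8.15% against 7.76% and 7.12%). The share of H2A.Z within H2A was 4.99% and 8.13% in OPCs and 6.26% and 7.08% in OLs in RNA-seq, and 5.89% and 8.83% against 6.77% and 8.61% in footprints, so that the groups overlapped. With 2 cultures against 2 the exact permutation test cannot give a two-sided p below 0.333, so no share was tested. Sums count reads shared between genes as the authors' tools placed them, and RNA-seq FPKM depends on the annotated transcript length.

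**Figure D3:**
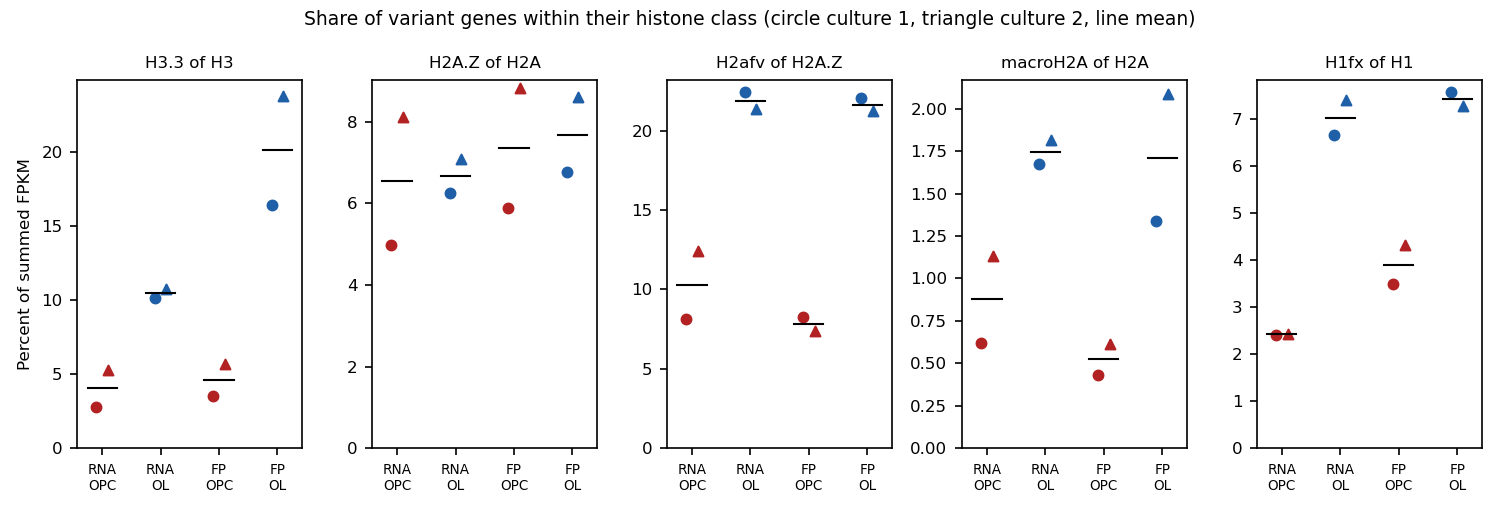
Percent of summed FPKM taken by variant genes within H3, H2A, H2A.Z or H1 (y axes start at 0), in RNA-seq and footprint (FP) libraries of OPCs and OLs, with circles for culture 1, triangles for culture 2 and lines for means of 2. The H3.3, H2afv, macroH2A and H1fx shares are higher in both OL libraries than in both OPC libraries, and the H2A.Z share overlaps.

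Cultures of the same label were also set side by side. In OPC RNA-seq, 43 of the 45 genes were higher in culture 1, by a median ratio of 1.41, and in OPC footprints 45 of 45, by 1.53. Over all transcripts tested the median ratios were 1.01 and 0.991. The 22 measured genes of the S phase and proliferation list had median ratios of 0.907 in RNA-seq, with 7 higher in culture 1, and 0.989 in footprints, with 11 higher. The variant genes had 0.881 and 1.08. In OLs the median ratios of the 45 genes were 1.14 in RNA-seq and 1.49 in footprints, with 39 and 45 genes higher in culture 1. Over all transcripts tested in OLs they were 1.11 and 1.22, with 5357 of 8346 and 5777 of 8342 higher. In each pair with an identical CDS, the OPC RNA-seq log2 ratio was larger for the plus-strand copy. It was 1.01 in Hist1h2ao against 0.365 in Hist1h2ap, and 1.01 in Hist2h2aa1 against 0.44 in Hist2h2aa2. It was 1.02 in Hist2h3c1 against 0.501 in Hist2h3c2, and 0.783 in Hist1h4m against -0.0142 in Hist1h4n. These ratios are descriptions of single cultures and were not tested.

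**Figure D4:**
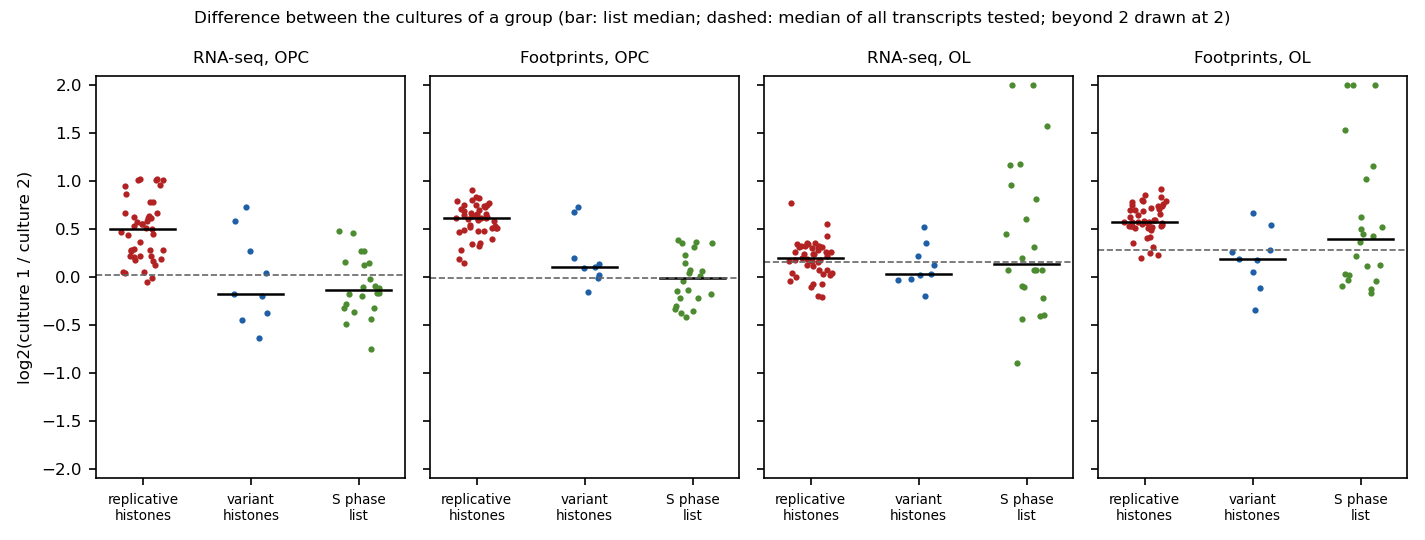
Log2 ratio of culture 1 to culture 2 within OPCs and within OLs, 1 point a gene, for replication-dependent and variant histone genes and the S phase list (bars, medians, and dashed line, median of all transcripts tested, with points beyond 2 drawn at 2). In OPC and in OL footprints all 45 replication-dependent genes lie above 0, while the S phase genes of OPC footprints scatter around it.

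Ribosome density, the footprint FPKM divided by the RNA-seq FPKM, addresses whether translation changed beyond mRNA level. For the 45 genes its median was 3.67 and 3.63 in OPC cultures and 3.01 and 2.43 in OL cultures. Over all transcripts tested the medians were 1.72 and 1.77 against 2.02 and 1.95. The log2 change was negative for all 45 genes, with a median of -0.47 beside 0.10 over all transcripts, of which 42.3% were negative. None of the 54 histone genes tested passed the interaction test in limma (0.0124% of 8056 transcripts did). An unadjusted p under 0.05 was found for 4 of the 54, beside 387 of all 8056 transcripts, a similar share. The 4 were Hist2h2be (-1.10 ± 0.35, SE), Hist2h4 (-0.95 ± 0.29), H2afz (-0.48 ± 0.17) and H1fx (-0.70 ± 0.28). All 45 stayed negative under every change of pseudocount, minimum, trend or scaling tried, and 40 to 45 did with 1 culture left out. With the culture as a block, 18 of the 45 had an unadjusted p under 0.05, beside 539 of all 8056 transcripts. Still none of the 45 passed (lowest limma adjusted p = 0.66). A change in ribosome density was not detectable gene by gene with these libraries.

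The level of ribosome density among the 45 genes varied with the annotated lengths, which enter it by definition. Footprint FPKM is divided by the CDS length and RNA-seq FPKM by the transcript length. The relation of the level to the ratio of these lengths is therefore partly built in. Where the annotated transcript was at most 1.5 times the CDS (32 genes) the mean in OPCs ranged from 1.26 to 4.94 with a median of 3.28, and where it was longer (13 genes) it ranged from 4.45 to 25.8 with a median of 8.25. Spearman's rho between the length ratio and ribosome density was 0.76 across the 45 genes, which share reads and libraries. Hist4h4, with the longest annotated transcript relative to its CDS (9.18 times), had densities of 23.9 and 21.7 in OPCs and 20.6 and 16.7 in OLs, and Hist2h4 had 25.1 and 26.5 against 17.2 and 10.3. RNA-seq FPKM is an average over the annotated transcript, whereas a stem-loop mRNA ends shortly after the CDS, so levels of ribosome density are not comparable between these genes. For the change, Spearman's rho with the length ratio was -0.25, and its median was -0.46 in the 32 genes and -0.65 in the 13. For the RNA-seq change rho was 0.45. The largest falls in ribosome density were those of Hist2h2be (-1.10), Hist2h3c1 (-1.05), Hist3h2a (-0.99) and Hist2h4 (-0.95). Their annotated transcripts are 6.88, 4.43, 5.46 and 5.22 times the CDS. Hist4h4, with the longest, changed by -0.30.

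**Figure D5:**
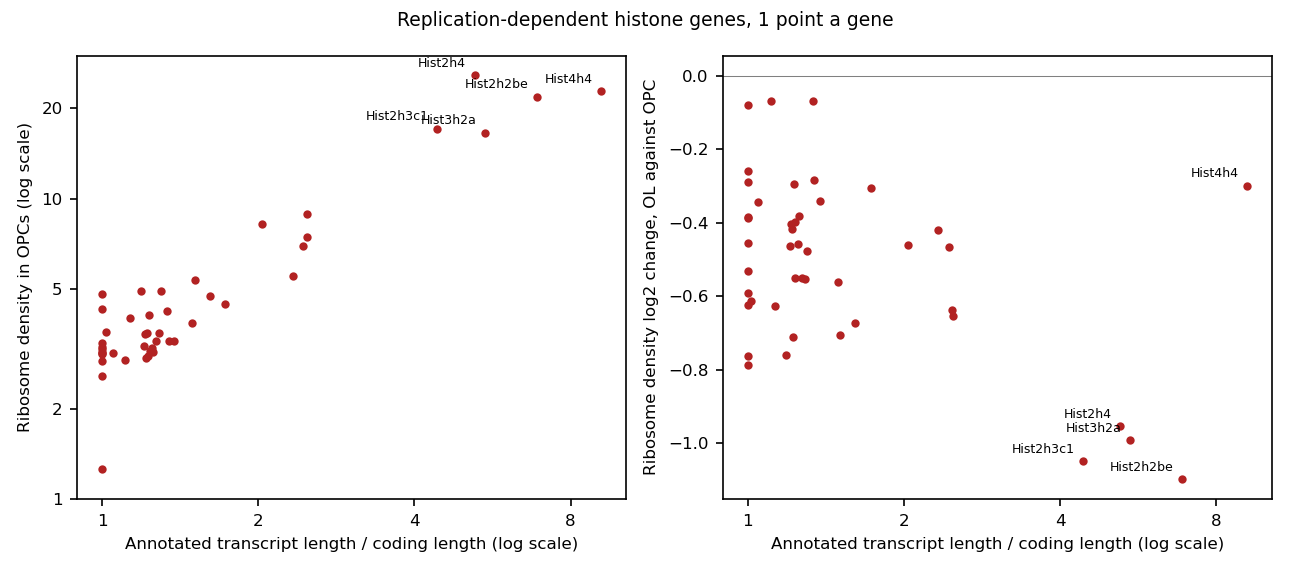
Ribosome density in OPCs (left, mean of 2 cultures, log scale) and its log2 change, OL against OPC (right), against the annotated transcript length divided by the CDS length (log scale), 1 point a replication-dependent gene. The median density is 8.25 in the 13 genes whose transcript is over 1.5 times the CDS and 3.28 in the other 32, and all 45 changes lie below 0.

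Genes that make histone mRNA and handle new histones were read from lists beside the members. Of 16 tested genes of histone mRNA 3' processing and decay, 7 fell and 3 rose in RNA-seq, and 4 fell and 3 rose in footprints (medians -0.72 and -0.68). Over all transcripts 20.2% fell and 13% rose in RNA-seq, and 10.8% fell and 12.8% rose in footprints, so the number that rose here is near the background. Slbp, for the stem-loop binding protein, was at 44.4 and 46.6 FPKM in OPC and 14.4 and 19.0 in OL RNA-seq (log2 change -1.46 ± 0.20, limma adjusted p = 0.0052) and at 170.2 and 132 against 53.5 and 47.9 in footprints. Casp8ap2 (FLASH, a component of the histone locus body) fell by 1.10 on the log2 scale in RNA-seq, and the cyclin E genes Ccne1 and Ccne2, whose kinase activates histone transcription, fell by 1.97 and 2.20. Npat, the coactivator of histone genes, was at 12.7 and 15.2 FPKM in OPC and 13.7 and 13.5 in OL RNA-seq, and at 16.01 and 13.9 against 15.97 and 12.7 in footprints, and did not pass in either. Those that rose were Mif4gd (SLIP1, which bridges SLBP to translation, with log2 changes 1.68 and 2.13), Sympk (a scaffold of 3' end cleavage, 0.86 and 1.23) and Cstf2 (a cleavage factor, 0.56 and 0.76).

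Chaperones of newly made histones bring them to the fork. Of 11 replication-coupled chaperone genes, 10 fell in RNA-seq and 7 in footprints (medians -1.76 and -2.04). They included Nasp (an H3 and H4 reserve chaperone, -1.76 in RNA-seq), Hat1 (which acetylates new H4, -2.16), Chaf1b (a CAF-1 subunit, -3.66) and Asf1b (-1.52, with 0 FPKM in 1 OL footprint library). Rbbp4, also a part of CAF-1, was at 72.7 and 90.1 FPKM in OPC and 71.1 and 79.3 in OL RNA-seq and did not pass. Of 15 genes for replication-independent and variant deposition, 5 fell in RNA-seq (20.2% of all transcripts did) and 5 in footprints (10.8%), the same 5 genes: Cenpa (the centromeric H3), its chaperone Hjurp, Nasp, Dek and Anp32e (which removes H2A.Z, with log2 changes of -1.002 and -1.30). Hira, the H3.3 chaperone, was at 35.1 and 24.3 FPKM in OPC and 18.7 and 12.5 in OL RNA-seq (limma adjusted p = 0.055, and 0.010 with the replicate block), and Atrx at 16.9 and 23.0 against 15.7 and 19.1, which did not pass. With the replicate block 8 of the 15 fell in RNA-seq, where 2073 of 8346 transcripts did, with Hira, Nap1l4 and Vps72 added. Of 22 S phase and proliferation genes, 21 fell in RNA-seq and 19 in footprints, with medians of -2.69 and -2.66. Pcna, the sliding clamp of DNA polymerase, fell by 1.32 and 1.51 on the log2 scale and Rrm2 (ribonucleotide reductase) by 2.59 and 2.91. Nasp and Mcm2 each stand in a pair of these lists, and their difference from the histone genes was not tested.

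The study asks how codons for lysine and phenylalanine are read in OLs. The replication-dependent genes encode lysine in a median 10.6% of codons against 5.52% over all listed transcripts, and read it with AAA in a median 7.69% of cases against 36.8%. Phenylalanine was encoded by UUU in a median 0% of cases against 42.9%, and 89.1% of their codons ended in G or C against 60.8%. These short genes hold few phenylalanine codons (1 in Hist1h2ab, 4 in Hist2h3b), so the percentage of a single gene can take few values. Variant genes lay between, with AAA for a median 34.8% of lysines among the 9 that encode lysine, 61.5% in H3f3a and 46.2% in H3f3b.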

How the data were processed

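Per the labels and the study's methods, total RNA and MNase-protected monosome fragments were sequenced, and the authors aligned reads to GRCm38 with HISAT2 2.1.0 and estimated FPKM with StringTie 1.3.5 and ballgown, using Gencode annotation, over transcripts for RNA-seq and the CDS for footprints. The deposited FPKM values were used as they stand. Groups came from the sample titles, with 2 cultures each. Per the study's methods OL cultures match OPC cultures, and equal replicate numbers were taken to mark the match. Deviations of same-numbered samples from their group means correlated at 0.108 in RNA-seq, 0.086 in footprints and 0.0604 in ribosome density. Values were transformed to log2(FPKM + 0.1), transcripts averaging 1 FPKM or more in that kind of library were kept, and limma 3.58.1 (R 4.3.3), with a mean-variance trend, was fitted over all transcripts, with Benjamini-Hochberg adjustment and a threshold of 0.05. Ribosome density was tested as the interaction over all 8 libraries. The scripts were tested on simulated data. Read totals were not used here, and aligned bases were estimated from the steps between low FPKM values. Strand use in counting is not given in the sources used here, so overlapping genes are uncertain. Alternatives changed the pseudocount, minimum, trend, scaling, replicate block and libraries. Every histone gene could be named, with values in all libraries for those tested, as could listed genes that passed and a few fixed ones. The members and lists were chosen with earlier results of these data known.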

Additional observations from a re-analysis of the deposited data

How the results depend on the processing

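All 45 replication-dependent genes had negative changes in RNA-seq and footprints under every alternative, while the number called moved. With 1 library left out, the lone sample is assumed to vary like the others. Called replication-dependent genes then ranged from 21 to 35 in RNA-seq and 0 to 44 in footprints, and variant genes from 1 to 2 and 0 to 3. The medians ranged from -1.90 to -1.44 (replication-dependent) and -0.62 to -0.40 (variant) in RNA-seq, and for ribosome density from -0.68 to -0.32 and -0.46 to -0.0132. Without the trend, 2 variant genes were called in RNA-seq, and 9 replication-dependent genes and 1 variant gene in footprints. With median-ratio scaling, 2 variant genes were called in RNA-seq, the variant median was -0.31, the ribosome density median of replication-dependent genes was -0.63, and the RNA-seq changes of Npat (0.15) and H1fx (0.0498) reversed. Among the 7 genes with few shared words, an alternative chosen after seeing the data, the RNA-seq median was -1.285. Where 1 library left out reversed a change, none of which was called, the changes ranged from -0.11 to 0.23 for H2afy2 footprints, -0.24 to 0.096 for Npat footprints, -0.16 to 0.10 for Npat RNA-seq, -0.26 to 0.00226 for H1fx RNA-seq and -0.41 to 0.0354 for Atrx RNA-seq. The causes were not tested. Depth was estimated and sets no interval.

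The replicate number as a block called 45 replication-dependent and 4 variant genes in RNA-seq, 45 and 6 in footprints, and 0 in ribosome density. Over all transcripts, 2073 of 8346 fell with it in RNA-seq and 803 of 8342 in footprints. Among listed genes it added Gins2, Cstf3, Lsm11, Hira, Nap1l4 and Vps72 in RNA-seq and dropped Cstf3 and Mms22l in footprints, and beyond these and the histone genes named with it, it changed no other call of the histone genes and lists.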
